A study of Homo sapiens with 9 samples.

Results

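Tubulin isotype genes encode the alpha, beta and gamma tubulins from which cells build microtubules. Those described here were the alpha tubulin genes TUBA1A, TUBA1B and TUBA1C, the beta tubulin genes TUBB, TUBB2A, TUBB2B, TUBB3, TUBB4B and TUBB6, and the gamma tubulin gene TUBG1. They were chosen by symbol and not by a cut on their values, though with earlier results of these data known. They are 10 of the 24462 gene symbols counted. All 10 were present in every count file, and all 10 passed the filter on low counts that left 13676 genes for testing.

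Transcripts were counted in U-373MG, a long-established line of human astrocytoma and glioblastoma cells, in 3 groups of 3 libraries. Control cells were untreated, and their time in culture is not stated. The other groups received 200 nM of the peptide NnK-1 or 200 nM of the peptide CBRV1-10493, each for 48 h. Both peptides are synthetic, derive from jellyfish sequences and resemble ShK, a sea anemone toxin known to block a voltage-gated potassium channel. The 3 control libraries served both comparisons with control, and all libraries came from this single cell line. QuantSeq libraries were used, in which each transcript copy gives about one read near its 3′ end, so levels were compared between genes as CPM (a gene's reads per 1000000 counts of its library) without division by length.

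An alpha and a beta tubulin form the dimer that polymerizes into the microtubule wall, and gamma tubulin sits in the ring complex from which microtubules grow. The isotypes of each class are encoded by separate genes and differ mostly in their acidic C-terminal tails, where many of the modifying enzymes act. Cells hold the amount of dimer steady by autoregulation: when free dimer is in excess, the factor TTC5 binds the first residues of alpha or beta tubulin as they leave the ribosome, and the messenger RNA being translated is degraded. TUBB3 is widely used as a marker of neurons and is also made by many tumours, and TUBB2B and TUBA1A are prominent in the developing brain.

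The opening of each coding sequence is shown because it encodes the residues that autoregulation reads. Each line gives the first 30 bases of the coding sequence of a GENCODE 29 transcript (build GRCh38), 5′ to 3′, with the first 4 codons in capitals.
TUBA1A: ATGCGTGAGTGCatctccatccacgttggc
TUBA1B: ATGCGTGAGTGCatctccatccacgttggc
TUBA1C: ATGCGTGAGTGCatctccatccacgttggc
TUBB: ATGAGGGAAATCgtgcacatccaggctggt
TUBB2A: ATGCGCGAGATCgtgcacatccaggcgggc
TUBB2B: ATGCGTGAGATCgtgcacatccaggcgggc
TUBB3: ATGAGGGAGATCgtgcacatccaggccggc
TUBB4B: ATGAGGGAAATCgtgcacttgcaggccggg
TUBB6: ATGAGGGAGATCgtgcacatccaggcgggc
TUBG1: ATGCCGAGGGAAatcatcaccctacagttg
The 3 alpha tubulin genes share all 30 bases. Among the 6 beta tubulin genes, TUBB and TUBB4B have the same first 4 codons, as do TUBB3 and TUBB6, while TUBB2A and TUBB2B each have their own. TUBG1, which is not an alpha or beta tubulin, opens with different codons.

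The ends of the coding sequences are shown because they encode the tails by which the isotypes differ. These are the last 30 bases of 5 members, with the stop codon in capitals, from the same transcripts.
TUBA1C: gacggagaggatgagggtgaagagtatTAA
TUBB2A: gaggaggaggagggcgaggacgaggctTAA
TUBB2B: gaggaggaggagggcgaggacgaggcgTAG
TUBB3: gaggagtcggaggcccagggccccaagTGA
TUBB6: gaggatgaggaagaggagatcgatggaTAG
The ends of TUBB3 and TUBB6 differ from those of TUBB2A and TUBB2B, which are nearly alike. Over the whole coding sequence TUBA1A and TUBA1B were 97.2% identical. TUBB2A and TUBB2B were 98.1% identical, the closest of the 45 pairs, and the other pairs of beta tubulin genes lay between 80.9% and 87.7%. TUBG1 shared between 49% and 52.9% with the other members. In the RefSeq gene order TUBA1B, TUBA1A and TUBA1C stand next to one another, TUBA1A between the other two, and TUBB2A and TUBB2B are also neighbours.

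Reads of such close relatives can be hard to assign. Of the 75-base windows in the transcript's last 500 bases, 41.1% for TUBA1B and 53.5% for TUBB2A were identical to part of another gene's transcript. Genes that overlap a member in the annotation were left out of this search. They included AFG3L2 for TUBB6, PSMG4 for TUBB2B and AC092143.1 for TUBB3. TUBA1A and TUBA1C overlap, so each was left out for the other. The share was 16% for TUBA1A, 16.9% for TUBB3, 16.2% for TUBB4B and 9.39% for TUBG1. No window of TUBA1C, TUBB, TUBB2B or TUBB6 was shared with the genes searched, but sharing between TUBA1A and TUBA1C was not measured. The rule for reads that match several genes is not stated. The levels of TUBA1A, TUBA1B, TUBB2A, TUBB3, TUBB4B and TUBG1 are therefore uncertain. The shares count windows and not reads, so how many reads are affected was not measured.

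The libraries held between 11203094 and 13491075 counts. The largest difference among libraries set NnK-1 replicate 2 apart (first principal component, 19.7% of the variance), and the next set CBRV1-10493 replicate 1 apart (14.7%). Counts of members, and log2 fold changes whose 95% interval is printed and lay clear of 0, are therefore also given without a library that stood apart. Markers of astrocytes and their progenitors were mixed. In control cells VIM stood at 5576 ± 633 CPM (SD, n = 3), NES at 1434 ± 15.2 and CD44 at 1130 ± 31.5. SOX9 stood at 617 ± 17.1 CPM and SOX2 at 462 ± 21.7. S100B stood at 132 ± 4.83 CPM, SLC1A3 at 98.0 ± 9.21, FABP7 at 82.9 ± 35.8 and GFAP at 23.4 ± 4.81. The mature astrocyte gene ALDH1L1 had no read in any library, where a count of 0 allows up to 0.268 CPM in the shallowest, and AQP4 and SLC1A2 stayed near 0. Of 12 neuronal markers, 4 were high enough to test, led by NEFL at 60.7 ± 6.28 CPM, whereas RBFOX3, SYP, DCX and STMN2 were near 0. Their summed level ranged from 66.8 to 80.4 CPM in control, from 76.4 to 89.1 with NnK-1 and from 72.3 to 76.6 with CBRV1-10493. The oligodendrocyte genes OLIG2 and SOX10 and the endothelial gene CLDN5 had no read.

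Tubulin messages were abundant in these cells. The 10 members took between 1.09% and 1.38% of all counts in a library. TUBB, the main beta tubulin gene of dividing cells, averaged 3872 CPM over the 9 libraries and ranked 11 among the 13676 tested genes. TUBA1B, a ubiquitous alpha tubulin gene, averaged 3178 CPM and ranked 16. In control cells the order of mean levels was TUBB, TUBA1B, TUBA1C, TUBA1A, TUBB6, TUBB2A, TUBB4B, TUBB2B, TUBB3 and TUBG1. The 3 libraries of neighbours in that order did not overlap, except for TUBB2B and TUBB3. With each peptide the ranges of TUBB and TUBA1B overlapped too, and with NnK-1 TUBB3 stood above TUBB2B.

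Other tubulin genes were far lower. Over the 9 libraries TUBG2, the second gamma tubulin gene, averaged 33.4 CPM and TUBA4A, an alpha tubulin gene of muscle and platelets, averaged 11.3 CPM. The delta tubulin gene TUBD1 averaged 9.49 CPM and the epsilon tubulin gene TUBE1 6.29 CPM; both belong to centrioles. The platelet isotype TUBB1 averaged 2.81 CPM, the neuronal and glial isotype TUBB4A 1.59 CPM and TUBA3FP 1.09 CPM. The remaining 8 of 15 such symbols averaged under 1 CPM, and TUBA3E had no read. None of the 7 named here passed in any comparison (edgeR quasi-likelihood test).

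With NnK-1, alpha tubulin messages were counted more often than in control cells and TUBB6 less often, by modest amounts that did not pass the test across all genes. TUBA1B stood at 1.28-fold its control level, TUBB3 at 1.25-fold, TUBA1A and TUBB2A at 1.19-fold and TUBA1C at 1.16-fold. TUBB6 stood at 0.837-fold. TUBB, TUBB2B, TUBB4B and TUBG1 overlapped with control.

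TUBA1B counted 2889, 2875 and 2869 CPM in the control libraries, 3389, 3987 and 3464 with NnK-1 and 3566, 2796 and 2769 with CBRV1-10493. Every NnK-1 library lay above every control library, and of the CBRV1-10493 libraries only replicate 1 did. The fitted log2 fold change of NnK-1 against control was 0.36 (95% interval 0.15 to 0.56), with an edgeR adjusted p of 0.499, and its unadjusted p ranked 35 among all genes. It passed, with an adjusted p of 0.00639, only when no filter on low counts was used, a setting in which 74 genes passed. Without NnK-1 replicate 2 the log2 fold change was 0.26 (0.07 to 0.46).

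TUBA1A, the alpha tubulin gene best known from neurons, counted 1122, 1082 and 1153 CPM in control, 1275, 1405 and 1238 with NnK-1 and 1454, 1168 and 1180 with CBRV1-10493. Both peptide groups lay wholly above control. The log2 fold change was 0.25 (0.05 to 0.45) with NnK-1 (edgeR adjusted p = 0.62) and 0.19 (-0.0018 to 0.39) with CBRV1-10493 (adjusted p = 1). The former was 0.18 (-0.02 to 0.38) without NnK-1 replicate 2. Without CBRV1-10493 replicate 1 the latter was 0.08 (-0.10 to 0.26).

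TUBA1C, the third alpha tubulin gene of the cluster, counted 1575, 1615 and 1560 CPM in control, 1657, 1924 and 1807 with NnK-1 and 1746, 1567 and 1555 with CBRV1-10493. Its NnK-1 libraries did not overlap with control, at a log2 fold change of 0.21 (0.04 to 0.39) and an edgeR adjusted p of 0.62. It was 0.14 (-0.03 to 0.32) without NnK-1 replicate 2. Summed over the 3 genes, alpha tubulin came to 5580 ± 8.09 CPM in control (SD, n = 3), 6715 ± 528 with NnK-1 and 5934 ± 721 with CBRV1-10493. In this sum the control libraries ran from 5571 to 5587 and the NnK-1 libraries from 6321 to 7315, the highest being replicate 2. The same control libraries ran from 5278 to 5977 in the beta tubulin sum, so their narrow alpha range may understate their spread. The mean alpha tubulin sum was 6415 CPM for NnK-1 without replicate 2 and 5517 CPM for CBRV1-10493 without replicate 1. In bulk libraries a change in RNA per cell cannot be told apart from a change in the cells present.

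**Figure D1:**
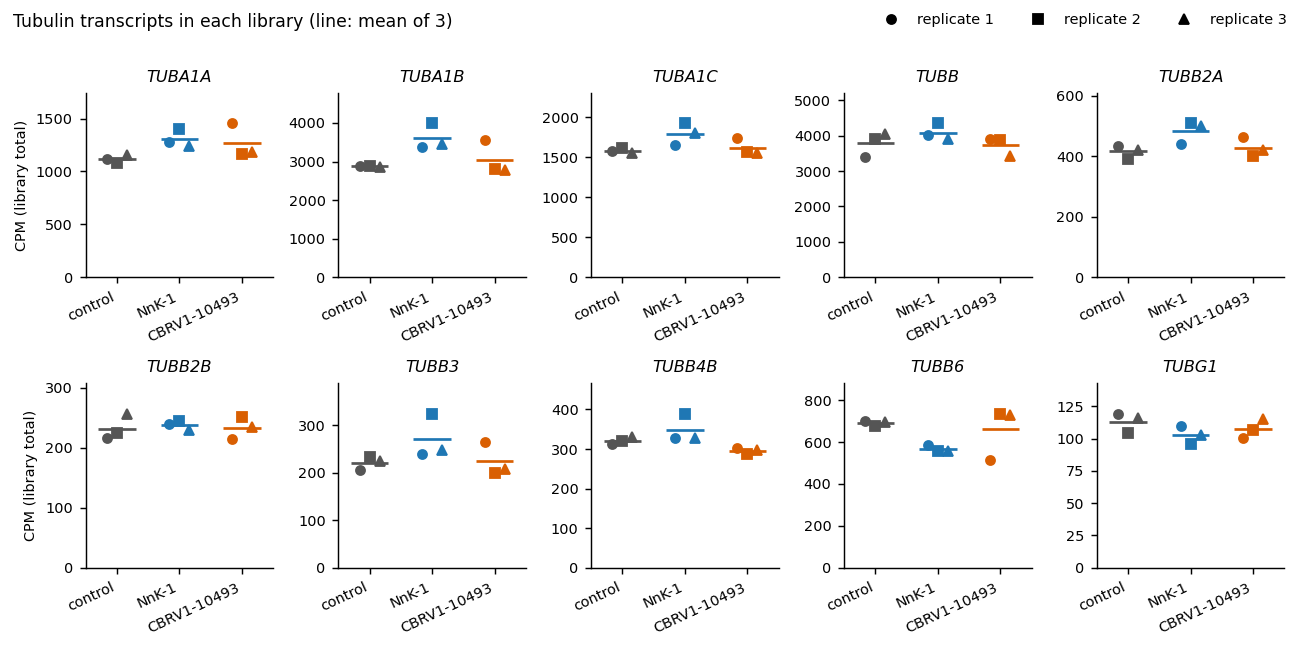
Level of each of the 10 tubulin genes in every library, in CPM of the library total (vertical axis, from 0) for the 3 groups (horizontal axis); symbols give the replicate number and lines the mean of 3 libraries. For TUBA1B the NnK-1 libraries sit between 3389 and 3987, all above the control libraries, and for TUBB6 they sit between 557 and 586, all below them; CBRV1-10493 replicate 1 lies with the NnK-1 libraries for both genes.

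Among the beta tubulin genes, TUBB was the largest by far. It counted 3410, 3896 and 4053 CPM in control, 4022, 4347 and 3902 with NnK-1 and 3908, 3875 and 3434 with CBRV1-10493. All 3 groups overlapped, and the log2 fold change was 0.14 (-0.04 to 0.32) with NnK-1 and -0.0035 (-0.18 to 0.17) with CBRV1-10493.

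TUBB6, the class V beta tubulin gene, was lower with NnK-1 where most other members were higher. It counted 700.4, 676 and 694 CPM in control, 586, 558 and 557 with NnK-1 and 516, 734 and 731 with CBRV1-10493. Every NnK-1 library lay below every control library, and the CBRV1-10493 group was split, with replicate 1 below and the other two above all controls. The log2 fold change of NnK-1 against control was -0.26 (-0.48 to -0.04; edgeR adjusted p = 0.634), and it was the same size without NnK-1 replicate 2 (-0.26, -0.50 to -0.02). With CBRV1-10493 it was -0.05 (-0.27 to 0.17), and 0.09 (-0.07 to 0.26) without replicate 1.

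TUBB3 counted 205, 234 and 224 CPM in control, 239, 323 and 248 with NnK-1 and 265, 199 and 208 with CBRV1-10493. The NnK-1 libraries lay above control, narrowly for replicate 1, and NnK-1 replicate 2 was the highest of all 9. The log2 fold change of 0.32 (0.05 to 0.59; edgeR adjusted p = 0.62) became 0.15 (-0.09 to 0.40) without that library.

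TUBB2A and its near-identical neighbour TUBB2B differed in whether their NnK-1 libraries overlapped with control. TUBB2A counted 434, 392 and 421 CPM in control, 441, 508 and 501 with NnK-1 and 465, 401 and 420 with CBRV1-10493, and only its NnK-1 libraries stood apart from control (log2 fold change 0.25, 0.05 to 0.44; edgeR adjusted p = 0.62). This was 0.19 (-0.02 to 0.40) without NnK-1 replicate 2. TUBB2B counted 215, 224 and 256 CPM in control, 239, 244 and 230 with NnK-1 and 215, 251 and 234 with CBRV1-10493. Its groups overlapped throughout, with a log2 fold change of 0.06 (-0.14 to 0.27) for NnK-1 and 0.02 (-0.18 to 0.23) for CBRV1-10493. The ratio of TUBB2A to TUBB2B was 1.80 ± 0.191 in control, 2.03 ± 0.171 with NnK-1 and 1.85 ± 0.288 with CBRV1-10493, and these ratios overlapped as well; the difference between the genes was not tested.

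TUBB4B, a ubiquitous isotype also used in cilia, counted 313, 322 and 329 CPM in control, 327, 388 and 327 with NnK-1 and 302, 288 and 298 with CBRV1-10493. It was the only member whose CBRV1-10493 libraries lay below all those of both other groups. Its log2 fold change was -0.10 (-0.30 to 0.09) for CBRV1-10493 against control (edgeR adjusted p = 1) and -0.24 (-0.44 to -0.05) for CBRV1-10493 against NnK-1 (adjusted p = 0.994). The latter became -0.14 (-0.33 to 0.05) without NnK-1 replicate 2, the library with the highest TUBB4B level.

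The counts of TUBB4B cannot be separated from those of a neighbour. FAM166A lies on the opposite strand and overlaps its 3′ end by 124 bases in GENCODE 29. FAM166A counted 3341, 3593 and 3861 reads in control, 3460, 3568 and 3390 with NnK-1 and 3030, 3055 and 3123 with CBRV1-10493. These were 0.820 to 0.887 times the TUBB4B counts in the same libraries. Whether strand was used in counting is not stated, so reads from these overlapping genes cannot be told apart. FAM166A too was lower with CBRV1-10493 than in every library of the other groups (CPM 253 ± 4.25 against 281 ± 8.25 in control and 291 ± 23.7 with NnK-1). AFG3L2, which overlaps the 3′ end of TUBB6 from the opposite strand, held 0.0997 to 0.160 times as many counts as TUBB6. Its level did not follow that of TUBB6, at 82.0 ± 11.0 CPM in control, 81.7 ± 6.15 with NnK-1 and 78.8 ± 5.20 with CBRV1-10493. In the same annotation a transcript on the opposite strand spans the whole of TUBA1B, and others lie inside TUBA1C and TUBB. On the same strand AC092143.1 overlaps TUBB3 by 14701 bases, including its 5′ end but not its 3′ end. Strand could not separate the reads of that pair. The overlaps of TUBB2B with PSMG4, of TUBG1 with its neighbour and of TUBA1A with TUBA1C are at 5′ ends.

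**Figure D2:**
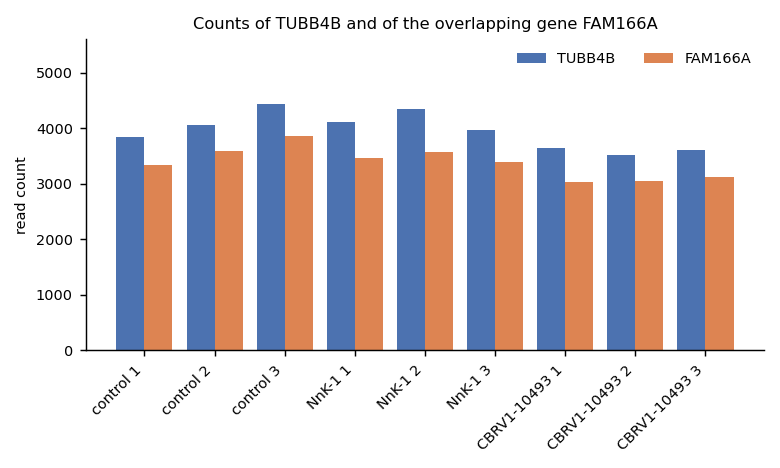
Read counts (vertical axis, from 0) of TUBB4B and of the overlapping gene FAM166A in each of the 9 libraries (horizontal axis), 1 pair of bars per library. The bars of FAM166A follow those of TUBB4B at 0.820 to 0.887 of their height, and both genes are lowest in the 3 CBRV1-10493 libraries.

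TUBG1, the gamma tubulin of the nucleating ring complex, counted 119, 104 and 116 CPM in control, 110, 96.0 and 103 with NnK-1 and 101, 107 and 115 with CBRV1-10493. The groups overlapped. The log2 fold change was -0.11 (-0.33 to 0.10) with NnK-1 and -0.06 (-0.27 to 0.16) with CBRV1-10493.

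Counted over the members, more genes stood apart from control with NnK-1 than with CBRV1-10493, and none of the 10 passed the adjusted threshold of 0.05 in either comparison (edgeR quasi-likelihood test, Benjamini-Hochberg over 13676 genes). For NnK-1 against control 6 of 10 had an unadjusted p under 0.05, where 7.32% of all genes did: TUBA1A, TUBA1B, TUBA1C, TUBB2A, TUBB3 and TUBB6. The same 6 had libraries that did not overlap with control, against 13.0% of all genes. Of these, 5 were higher, a pattern that 5.08% of all genes showed, and 1 was lower, as were 7.92%. The 8 members with a log2 fold change above 0 compare with 50.6% of all genes, and the median was 0.18 against 0.0033 over all genes. Several members also rose and fell together among the libraries of a group, with TUBB6 opposite to most of them. Counts over the members are therefore not counts of separate observations. No member passed with DESeq2 or limma-voom either, and each of those tools also gave 6 members with an unadjusted p under 0.05. Without NnK-1 replicate 2, the library that stood apart, only TUBA1B and TUBB6 had an unadjusted p under 0.05 in edgeR (adjusted p = 0.913 for each), against 5.27% of all genes, while 8 members still lay above 0 and the median of the 10 was 0.11. In that setting 6 members did not overlap with control, against 20.9% of all genes.

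For CBRV1-10493 against control, 0 of 10 members had an unadjusted p under 0.05 in edgeR, where 2.89% of all genes did. DESeq2 gave 0 and limma-voom 1. The libraries of TUBA1A lay wholly above control, as did those of 3.91% of all genes, and the libraries of TUBB4B lay wholly below, as did 4.96%, and 8.88% lay apart in either direction. The log2 fold change was above 0 for 6 members, against 50.8% of all genes, with a median of 0.03. That count rested on CBRV1-10493 replicate 1. Without it 3 members lay above 0, the median was -0.01, and 4 members did not overlap with control, where with 2 libraries against 3 this held for 17.7% of all genes. The 95% intervals of the 10 log2 fold changes reached about 0.20 to each side (median), which is the precision that 3 libraries a group gave here.

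**Figure D3:**
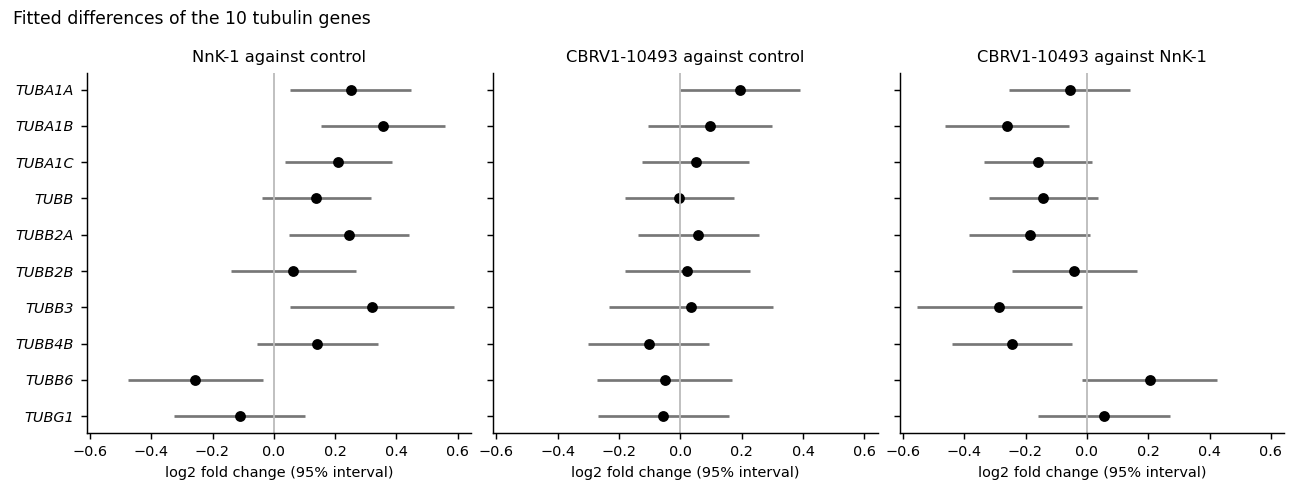
Fitted log2 fold change (horizontal axis; point) with its 95% interval (line) for the 10 tubulin genes (vertical axis) in the 3 comparisons, from the edgeR quasi-likelihood fit over all 9 libraries. With NnK-1 against control 8 points lie above 0 and TUBB6 and TUBG1 below, and no gene passed after adjustment in any panel.

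The peptides, given at the same dose and time, were also compared with each other directly. None of the 10 members passed for CBRV1-10493 against NnK-1 (edgeR adjusted p = 0.994 for each), and none with DESeq2 or limma-voom. An unadjusted p under 0.05 was reached by 3 members, TUBA1B, TUBB3 and TUBB4B, against 4.31% of all genes, and each was lower with CBRV1-10493. Their log2 fold changes were -0.26 (-0.46 to -0.06), -0.29 (-0.55 to -0.02) and -0.24 (-0.44 to -0.05). DESeq2 and limma-voom also gave 3 members each. Only TUBB4B did not overlap between the peptides, with lower libraries, as for 4.17% of all genes; 4.71% lay wholly higher and 8.88% in either direction. The log2 fold change was above 0 for 2 members, TUBB6 and TUBG1, against 50.3% of all genes.

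This comparison turned on 1 library of each group. Without NnK-1 replicate 2 no member had an unadjusted p under 0.05 in edgeR, where 3.21% of all genes did, and the log2 fold changes of TUBA1B and TUBB3 shrank to -0.17 (-0.37 to 0.03) and -0.12 (-0.37 to 0.13). Without CBRV1-10493 replicate 1 it was 6 members, against 7.18% of all genes, and 8 did not overlap between the peptides, where with 2 libraries against 3 this held for 23.3% of all genes. TUBA1B was then at -0.40 (-0.57 to -0.22), TUBB3 at -0.43 (-0.70 to -0.16) and TUBB6 at 0.35 (0.18 to 0.52), with adjusted p from 0.402 to 0.535. Without both libraries 3 members had an unadjusted p under 0.05, against 5.18% of all genes, among them TUBA1B at -0.30 (-0.44 to -0.16) and TUBB6 at 0.35 (0.18 to 0.53). The 95% intervals over all libraries do not exclude differences of this size between the peptides, nor for TUBB6 a difference of 0 (0.21, -0.01 to 0.43).

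TUBB6 and TUBA1B divided the libraries in the same way, a pair chosen after the values were seen. In 4 libraries, the 3 with NnK-1 and CBRV1-10493 replicate 1, TUBA1B was at least 3389 CPM and TUBB6 at most 586 CPM. In the other 5, the 3 controls and CBRV1-10493 replicates 2 and 3, TUBA1B was at most 2889 CPM and TUBB6 at least 676 CPM. Because the libraries fall into these separate sets, and neither holds 6, no correlation of the genes is given.

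**Figure D4:**
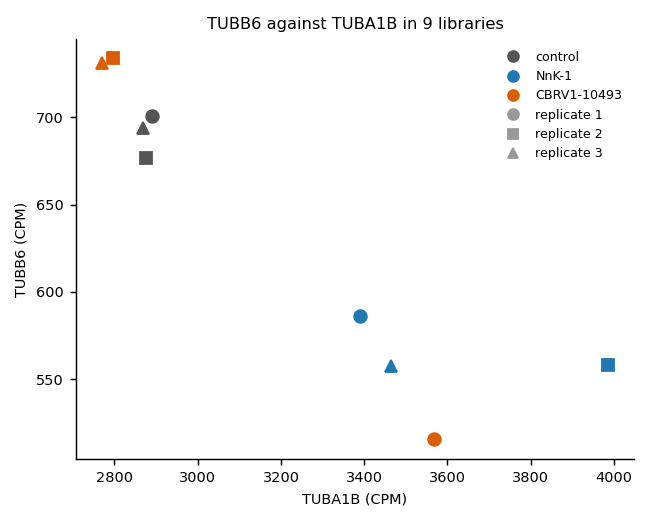
Level of TUBB6 (vertical axis, CPM) against level of TUBA1B (horizontal axis, CPM), 1 point per library, with colour for the group and shape for the replicate number; both axes start above 0. The 5 points at upper left are the controls and CBRV1-10493 replicates 2 and 3, and the 4 at lower right are the NnK-1 libraries and CBRV1-10493 replicate 1.

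The make-up of the alpha and beta tubulin reads was also described, since a share within a class does not depend on the library total. These shares are descriptions, with no test. Of the alpha tubulin reads TUBA1B held 51.6% ± 0.162 in control (SD, n = 3), 53.8% ± 0.653 with NnK-1 and 51.2% ± 1.32 with CBRV1-10493. TUBA1C held 28.4% ± 0.540, 26.8% ± 0.875 and 27.5% ± 1.44, and TUBA1A 20.1% ± 0.619, 19.5% ± 0.619 and 21.3% ± 0.205.

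The ratio of TUBA1A to TUBA1B differed in its mean between the groups, but single libraries of control and each peptide came close. It was 0.388, 0.376 and 0.402 in control, 0.376, 0.352 and 0.357 with NnK-1 and 0.408, 0.418 and 0.426 with CBRV1-10493. The CBRV1-10493 libraries were highest, replicate 1 among them, and the NnK-1 libraries lowest, with NnK-1 replicate 1 just under control replicate 2. These ratios rest on transcripts that share sequence near their 3′ ends, and the part this plays was not tested.

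Of the beta tubulin reads TUBB held 66.8% ± 1.86 in control, 68.2% ± 0.505 with NnK-1 and 66.9% ± 2.25 with CBRV1-10493. TUBB6 held 13.3%, 11.8% and 11.6% of them in control and 10.01%, 8.76% and 9.67% with NnK-1, so that the NnK-1 libraries lay below all controls. With CBRV1-10493 its share was 9.09%, 12.8% and 13.7%, again split between replicate 1 and the others. TUBB2A held 7.36% ± 0.756 in control, TUBB4B 5.68% ± 0.217, TUBB2B 4.09% ± 0.193 and TUBB3 3.90% ± 0.162. The 95% Wilson interval of a share in 1 library reached at most 0.379 percentage points to each side, which covers counting error only, as reads without molecular identifiers are not independent molecules.

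**Figure D5:**
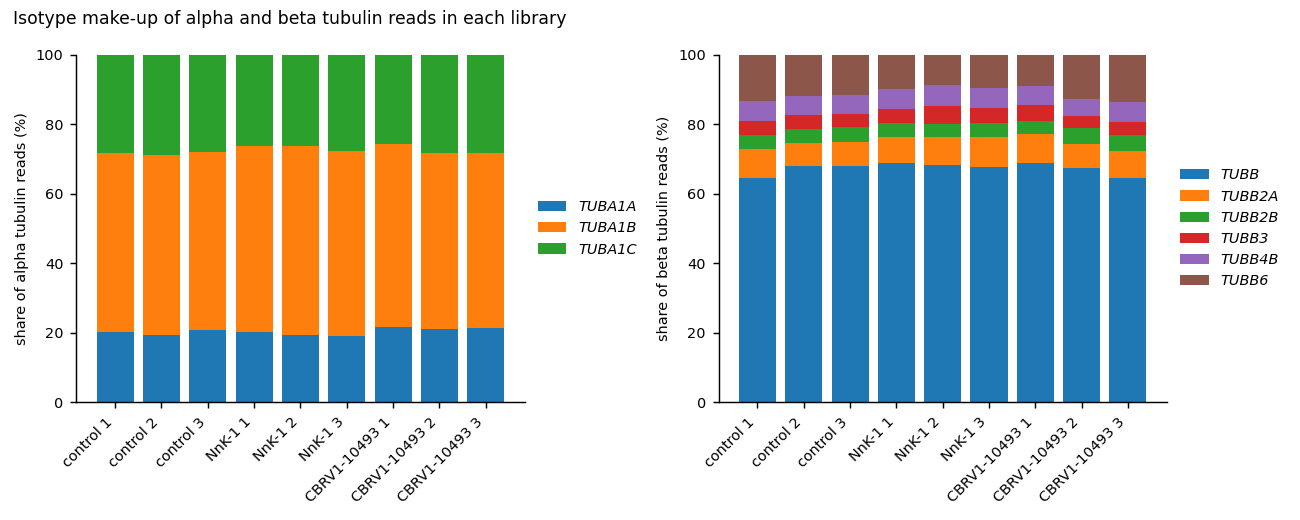
Share of each isotype (vertical axis, percent) among the alpha tubulin reads (left) and the beta tubulin reads (right) of each of the 9 libraries (horizontal axis), as stacked bars that sum to 100. TUBB6, at the top of the right-hand bars, takes 8.76% to 10.01% in the NnK-1 libraries and 9.09% in CBRV1-10493 replicate 1, and 11.6% to 13.7% in the other 5 libraries.

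Alpha tubulin reads came to 0.987 ± 0.0641 times the beta tubulin reads in control, 1.12 ± 0.0356 with NnK-1 and 1.06 ± 0.118 with CBRV1-10493. All NnK-1 libraries, from 1.08 to 1.15, were above the controls, from 0.934 to 1.06. The mean was 1.10 for NnK-1 without replicate 2 and 0.998 for CBRV1-10493 without replicate 1. The beta sum itself overlapped between the groups, at 5666 ± 356 CPM in control, 5996 ± 326 with NnK-1 and 5581 ± 225 with CBRV1-10493.

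Genes that fold, nucleate, modify and bind tubulin were counted from lists fixed by name. No gene of any list passed in any comparison (edgeR quasi-likelihood test). Tubulin folding needs the CCT chaperonin, prefoldin and the tubulin cofactors. All 23 genes of that list were tested, and 2 had an unadjusted p under 0.05 for NnK-1 against control, against 7.32% of all genes. TBCA, the cofactor that holds beta tubulin, stood at 1688 ± 59.3 CPM with NnK-1 and 1524 ± 16.3 in control (log2 fold change 0.17, 0.01 to 0.34; edgeR adjusted p = 0.673), with no overlap; without NnK-1 replicate 2 this was 0.13 (-0.05 to 0.31). PFDN6, a prefoldin subunit, stood at 6.01 ± 1.79 and 12.5 ± 7.83 CPM, with overlap. No folding gene had an unadjusted p under 0.05 in the other comparisons. There TBCA stood at 1644 ± 130.3 CPM with CBRV1-10493, above all controls, and PFDN6 at 8.71 ± 1.08. Between the peptides ARL2, a small GTPase that works with the cofactors, stood at 63.4 ± 11.4 CPM with CBRV1-10493 and 54.6 ± 1.76 with NnK-1, and TBCEL, a cofactor-like gene, at 5.57 ± 0.325 and 7.74 ± 1.30. The median log2 fold change of the list was -0.0055 for NnK-1 against control, where the median of all genes was 0.0033, and -0.02 for CBRV1-10493 against control, where it was 0.0027. TTC5, the autoregulation factor, counted only 4.49 ± 1.27 CPM in control, 5.13 ± 1.66 with NnK-1 and 3.18 ± 1.04 with CBRV1-10493. Its NnK-1 interval on the log2 scale, from -0.57 to 1.00, was too wide to show a modest difference.

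Microtubule nucleation rests on the gamma tubulin ring complex, its anchors and augmin. Of 23 genes 22 were tested, and 2 had an unadjusted p under 0.05 with NnK-1, both lower, a share near the 7.32% of all genes. AKAP9, a scaffold that holds the ring complex at the Golgi, counted 205 ± 30.7 CPM with NnK-1 and 257 ± 26.2 in control, and HAUS2, an augmin subunit, 42.0 ± 6.92 and 52.4 ± 4.22, each with overlap. Their log2 fold changes without NnK-1 replicate 2 were -0.22 (-0.46 to 0.02) and -0.20 (-0.49 to 0.10). The list's summed level was 1085 to 1100 CPM with NnK-1, 1140 to 1187 in control and 1087 to 1181 with CBRV1-10493. With CBRV1-10493 HAUS2 counted 43.7 ± 3.96 CPM and CDK5RAP2, a ring complex activator, 44.9 ± 1.75 against 53.5 ± 3.84 in control, the latter without overlap. Between the peptides MZT2B, a small ring complex subunit, counted 173 ± 17.0 CPM with CBRV1-10493 and 148 ± 14.99 with NnK-1, and TPX2, a spindle assembly factor, 184 ± 5.66 and 199 ± 9.59. No gene of the list had an unadjusted p under 0.05 in these comparisons. The list's median log2 fold change was -0.02 for NnK-1 against control and 0.03 for CBRV1-10493 against control.

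Of 30 listed genes that modify or sever tubulin, 24 were tested. With NnK-1 the katanin-like severing gene KATNAL1 counted 36.3 ± 3.20 CPM against 27.8 ± 0.503 in control (log2 fold change 0.41, 0.12 to 0.70; edgeR adjusted p = 0.578; 0.37, 0.05 to 0.69, without NnK-1 replicate 2). SPAST, which encodes the severing enzyme spastin, counted 15.6 ± 0.835 against 20.6 ± 2.61 CPM. Neither overlapped with control, and these were the 2 genes of the list with an unadjusted p under 0.05 in that comparison, a share near the 7.32% of all genes; there was none in the others. SPAST was at a log2 fold change of -0.37 (-0.77 to 0.03) without NnK-1 replicate 2. With CBRV1-10493 KATNAL1 counted 31.3 ± 1.54 CPM and SPAST 19.8 ± 1.55. AGBL5, a deglutamylase, counted 192 ± 13.1 CPM with CBRV1-10493 and 175.0 ± 19.99 in control, and FIGN, a severing enzyme, 21.6 ± 4.33 and 27.5 ± 7.91, each with overlap. The list's median log2 fold change was 0.06 for NnK-1 against control and 0.02 for CBRV1-10493 against control; it was 0.0043 without NnK-1 replicate 2 and -0.06 without CBRV1-10493 replicate 1, respectively.

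Of 45 microtubule-associated genes 38 were tested. STMN1 encodes stathmin, which binds tubulin dimers and keeps them from polymerizing. It counted 557, 580.0 and 594 CPM in control, 685, 672 and 648 with NnK-1 and 608, 582 and 579.6 with CBRV1-10493. The NnK-1 libraries lay above all the others, with a log2 fold change of 0.24 (0.07 to 0.40) against control (edgeR adjusted p = 0.578) and -0.19 (-0.36 to -0.03) for CBRV1-10493 against NnK-1 (adjusted p = 0.994). Without NnK-1 replicate 2 these were 0.22 (0.04 to 0.40) and -0.17 (-0.36 to 0.0067). MAP1A, a stabilizing protein of neurons, counted 45.5 ± 4.44 CPM with NnK-1 and 60.2 ± 13.1 in control, with overlap. KIF2C, a kinesin that shortens microtubule ends, counted 67.1 ± 7.09 with CBRV1-10493 and 86.3 ± 10.1 with NnK-1 (edgeR adjusted p = 0.994), without overlap. Over the list, 3 genes had an unadjusted p under 0.05 for NnK-1 against control, where 7.32% of all genes did, none for CBRV1-10493 against control (2.89%) and 2 between the peptides (4.31%). MAPRE3, a plus-end binding protein, counted 7.30 ± 2.44 CPM with CBRV1-10493 and 10.01 ± 1.74 in control. The list's median log2 fold change was -0.05 for NnK-1 against control and -0.04 for CBRV1-10493 against control.

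The genes whose log2 CPM followed the summed level of the 10 members most closely over the 9 libraries, ranked over 10604 genes averaging 5 CPM or more, were PPIA (Pearson's r 0.986), CUTA (0.984), RPL10A (0.983) and HPCAL1 (0.981). PPIA encodes the abundant proline isomerase cyclophilin A, RPL10A a ribosomal protein and HPCAL1 a neuronal calcium sensor. The members' sum was 1.10%, 1.14% and 1.17% of the counts in control, 1.23%, 1.38% and 1.24% with NnK-1 and 1.25%, 1.14% and 1.09% with CBRV1-10493. This sum split the libraries into the same sets as TUBA1B and TUBB6 did, and no r was computed within a set. The points share library depth and scaling, and 20.3% of the ranked genes had an r above 0.5. Without NnK-1 replicate 2 and CBRV1-10493 replicate 1 these genes ranked 13, 3, 10 and 9, with r from 0.953 to 0.970.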

How the data were processed

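Total RNA from U-373MG gave 9 libraries, 3 from untreated cells and 3 per peptide. Per the labels and the design text, QuantSeq 3′ libraries were made from 500 ng of RNA and sequenced in single-end reads of 75 bases. The deposited values are raw read counts per symbol, 1 library to a file; the submitters' processing notes name Bowtie2, bedtools and hg19, while versions, annotation, strand and the handling of reads with several matches are not stated. The labels do not say that replicates came from separate cultures, so the p-values reflect the spread among these samples only, and that spread may be technical.

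Entries of one symbol were summed (25737 entries, 24462 symbols; TUBB stood on 8 entries, 7 of them at 0). Genes were kept by filterByExpr (minimum count 10, minimum total 15), normalized by TMM, and 1 quasi-likelihood fit over the 9 libraries was made in edgeR 4.0.16 (R 4.3.3); tests were two-sided, with a threshold of 0.05 on the p adjusted by Benjamini-Hochberg over 13676 genes. The common biological coefficient of variation was 0.169. Levels are CPM by library total with SDs over 3 libraries. The fit was tried on simulated data with changes larger than any member's here. It therefore does not show whether changes as small as the members' can be found.

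The members, lists and alternatives were chosen with earlier results of these data known. Named genes were every member, other tubulin symbols with a mean of at least 1 CPM, in each list and comparison the 2 tested genes with the smallest p at 5 CPM or more, and the 4 genes most like the members' sum. Libraries of a group all differed by more than sampling noise (chi-square per degree of freedom 6.78 to 21.7 over 9 pairs within groups). Alternatives covered scaling, filters, tools (DESeq2 1.42.0, limma 3.58.1), the libraries in the fit and the replicate number as a block. Coding sequences, windows and overlaps come from GENCODE 29 (GRCh38) and gene order from RefSeq, so no coordinates are given for the hg19 counts.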

Additional observations from a re-analysis of the deposited data

Results flagged for a closer look

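TUBB4B was the member whose NnK-1 libraries all lay above the control mean and whose CBRV1-10493 libraries all lay below it. Its log2 fold change for CBRV1-10493 against NnK-1 was -0.24 (edgeR quasi-likelihood test, adjusted p = 0.994), lower in 3 of 3 CBRV1-10493 libraries, and -0.14 (-0.33 to 0.05) without NnK-1 replicate 2. Reads of FAM166A, which overlaps its 3′ end, showed the same order of groups, and the part they play was not tested.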

How the results depend on the processing

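Over the 20 alternatives to each of 30 fitted log2 fold changes (10 members, 3 comparisons), 578 of 600 values kept their sign and their side of the threshold, and 21 turned sign, none of them past the threshold on either side. The 1 other passed only there: without a filter on low counts TUBA1B passed for NnK-1 against control (1 member), where 74 genes passed in all, 6 passed for CBRV1-10493 against control and 1 for CBRV1-10493 against NnK-1. DESeq2 on the genes kept passed 3 genes for NnK-1 against control, none of them a member. Upper-quartile factors, no filter, only the 6 libraries compared and limma-voom each gave 1 member with an unadjusted p under 0.05 for CBRV1-10493 against control. Scaling moved the median of all genes by -0.0264 at most on the log2 scale, the level of TUBA1B in control to 2850 CPM when TMM-scaled, and no direction of a member.

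Leaving out 1 library at a time, members with an unadjusted p under 0.05 numbered 2 to 6 for NnK-1 against control, 0 to 1 for CBRV1-10493 against control and 0 to 6 between the peptides. Members whose libraries did not overlap numbered 6 to 9 for NnK-1 against control (20.9% to 28.8% of all genes, with 1 group at 2 libraries), 2 to 4 for CBRV1-10493 against control (17.3% to 20.1%) and 1 to 8 between the peptides (16.1% to 23.8%), and members above 0 for CBRV1-10493 against control 3 to 7. The log2 fold changes that turned sign in this way ran, for CBRV1-10493 against control, from -0.039 to 0.16 for TUBA1B, -0.011 to 0.083 for TUBA1C, -0.078 to 0.056 for TUBB, -0.0097 to 0.11 for TUBB2A, -0.033 to 0.11 for TUBB2B, -0.11 to 0.11 for TUBB3 and -0.13 to 0.095 for TUBB6. For CBRV1-10493 against NnK-1 they ran from -0.17 to 0.016 for TUBA1A and -0.097 to 0.0094 for TUBB2B.

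Without both libraries that lie apart, an alternative chosen after seeing the data, the values for CBRV1-10493 against control that turned sign were -0.039 for TUBA1B, -0.011 for TUBA1C, -0.0096 for TUBB2A, -0.11 for TUBB3 and 0.095 for TUBB6; 3 members lay above 0 and 4 did not overlap with control (17.7% of all genes). Between the peptides TUBB2B turned to 0.044 and 8 members did not overlap, where with 2 libraries against 2 this held for 34.8% of all genes. Replicate numbers showed no clear pairing of the libraries. Same-numbered libraries' deviations from their group means correlated between -0.0566 and 0.132, and those of differently numbered libraries between -0.0933 and 0.0975. These few pairs cannot exclude a weak pairing. With the replicate block 0 members and 0 genes passed in each comparison, and the log2 fold change of TUBA1B for NnK-1 against control was 0.36. The 3 libraries a group limit the precision more than depth does, as every member had at least 1075 reads in each library.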

Other observations

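Genes of mitosis, in which the microtubule spindle separates the chromosomes, were listed beside the tubulins. All 12 were tested, and none passed in any comparison (edgeR quasi-likelihood test). For CBRV1-10493 against control 1 of 12 had a log2 fold change above 0, against 50.8% of all genes, with a median of -0.09. KIF11, the spindle kinesin Eg5, counted 41.6 ± 5.14 CPM with CBRV1-10493 and 51.3 ± 1.15 in control (edgeR adjusted p = 1), and PLK1, a mitotic kinase, 74.8 ± 3.08 and 87.1 ± 2.59 CPM; neither overlapped with control. For NnK-1 against control 6 of 12 lay above 0, with a median of -0.0049. The cyclin gene CCNB1 counted 130.1 ± 9.85 CPM with CBRV1-10493 and 159 ± 20.7 with NnK-1 (edgeR adjusted p = 0.994). Without CBRV1-10493 replicate 1 still 1 of 12 lay above 0 against control, with KIF11 at a log2 fold change of -0.20 (-0.49 to 0.10) and PLK1 at -0.22 (-0.47 to 0.02). CCNB1 between the peptides was at -0.30 over all libraries and at -0.37 (-0.60 to -0.15) without NnK-1 replicate 2.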
